A study of Homo sapiens with 20 samples.

Results

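The mitochondrial fission and fusion machinery was followed across U2OS clones as the mRNA levels of 10 genes, chosen by symbol from a count table of 43366 genes. Of these, 5 act in fission (DNM1L, FIS1, MFF, MIEF1 and MIEF2), 3 in fusion (MFN1, MFN2 and OPA1) and 2 encode proteases that cleave OPA1 (OMA1 and YME1L1). All 10 were found in the table and passed the filter on low counts in every comparison. They were set beside MTFP1, an inner-membrane fission factor whose mRNA is lost in the ZBTB48 knockouts, to ask whether the level of any other gene of the machinery differs where MTFP1 is missing.

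The cells were U2OS, a human osteosarcoma line. ZBTB48 is a zinc finger protein that binds telomeric repeats and a small set of promoters. There were 4 groups of 5 libraries, namely untreated WT clones, untreated ZBTB48 knockout (KO) clones, and the same clones of each genotype after 24 h in medium with IFNγ at 250 U/ml. Each replicate is 1 isolated clone, so a KO effect and differences between clones share the same replicates, and the measurement is poly(A) mRNA in bulk culture, where a lower level per cell and fewer expressing cells cannot be told apart.

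Mitochondria fuse and divide continually, and the balance sets the shape of the network. In fission, the dynamin-related GTPase DRP1, encoded by DNM1L, is recruited from the cytosol by outer-membrane receptors and constricts the organelle. In fusion, the mitofusins join the outer membranes and OPA1 joins the inner membranes, and cleavage of OPA1 by OMA1 and YME1L1 tunes how much of it is fusion-competent. Interferon γ is a cytokine that changes the expression of many genes.

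The promoter windows of MTFP1, MIEF2 and OMA1 are shown because MTFP1 is the one mitochondrial dynamics gene that differed between WT and KO labels, and MIEF2 and OMA1 are the members called with IFNγ in WT without pairing the clones. Each runs 5′ to 3′ on the gene's strand, from 250 bases before to 50 bases after the annotated start, and was taken from RefSeq on GRCh38.p14. The MTFP1 window is chr22:30425518-30425817 on the plus strand, the MIEF2 window is chr17:18260412-18260711 on the plus strand, and the OMA1 window is chr1:58546677-58546976 on the minus strand. Capitals mark the telomeric hexamer TTAGGG.
MTFP1: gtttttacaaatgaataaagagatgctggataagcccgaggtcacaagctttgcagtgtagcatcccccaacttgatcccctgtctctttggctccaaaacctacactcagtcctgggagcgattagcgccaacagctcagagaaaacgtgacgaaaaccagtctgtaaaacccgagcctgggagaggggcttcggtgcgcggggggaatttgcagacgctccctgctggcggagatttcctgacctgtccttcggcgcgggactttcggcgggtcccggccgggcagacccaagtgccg
MIEF2: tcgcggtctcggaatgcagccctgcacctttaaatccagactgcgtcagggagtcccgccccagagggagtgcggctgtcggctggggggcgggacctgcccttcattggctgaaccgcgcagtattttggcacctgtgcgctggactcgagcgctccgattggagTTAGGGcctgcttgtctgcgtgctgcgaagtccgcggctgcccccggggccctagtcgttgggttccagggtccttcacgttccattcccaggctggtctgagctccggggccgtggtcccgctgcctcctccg
OMA1: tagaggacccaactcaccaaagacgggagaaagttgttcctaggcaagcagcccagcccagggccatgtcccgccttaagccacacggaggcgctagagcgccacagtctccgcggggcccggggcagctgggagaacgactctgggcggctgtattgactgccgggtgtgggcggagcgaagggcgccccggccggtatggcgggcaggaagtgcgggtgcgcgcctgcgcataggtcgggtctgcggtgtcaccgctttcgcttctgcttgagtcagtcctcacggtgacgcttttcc

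Windows were found for 9 of the 10 members, 12 in all since MFF and MIEF2 have several annotated starts. Both strands were searched for the hexamer. It was present in 2 of the 12 windows, 1 of MFF and the MIEF2 window above at base 167, and was absent from the MTFP1 window. It occurred in 9.05% of all 35116 promoter windows of the same length. These are matches of letters in 300 bases and say nothing about binding.

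Library totals ran from 46652288 to 72952859 counts, and levels are given as CPM, counts scaled to a common library size with TMM factors over the 20 libraries. U2OS markers of the mesenchymal kind were expressed with the exception of COL1A2, which stayed below 1 CPM, and the 4 blood markers together stayed below 1 CPM. The 4 epithelial markers together ranged from 33.3 to 654 CPM over the libraries, and KRT8 alone from 30.4 to 648 CPM. ZBTB48 mRNA was 1.27, 1.94, 11.3, 3.18 and 4.04 CPM in untreated KO replicates 1 to 5, against 8.05 to 9.19 CPM in WT. KO replicate 3 thus had ZBTB48 mRNA above the WT range, treated (16.0 CPM) as well as untreated, and groups are called by their labels below. ZBTB48 protein was not measured in these libraries. ZBTB48 mRNA was not called between WT and KO labels, with log2 fold changes of 1.02 untreated and 0.82 after IFNγ (edgeR adjusted p = 0.98 and 0.996). The untreated and treated libraries of 1 clone deviated together in 8 of 10 clones, with correlations of 0.70 to 0.89 over 15116 genes, whereas the labelled pairs of KO replicates 4 and 5 gave 0.00 and 0.07. The untreated library of KO replicate 4 with the treated one of replicate 5 gave 0.76, and the untreated one of replicate 5 with the treated one of replicate 4 gave 0.84. Pairs were kept as labelled, and results that rest on the pairs of KO replicates 4 and 5 are also given without them.

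MTFP1 (chr22:30425768-30429054, plus strand, on GRCh38) was read first, as the point of reference. In untreated WT clones it stood at 33.7, 48.6, 27.1, 36.8 and 52.1 CPM, and in untreated KO labels at 0.78, 0.22, 0.94, 0.62 and 0.51 CPM. After IFNγ it stood at 42.1, 44.5, 33.2, 37.1 and 47.0 CPM in WT and at 0.51, 0.24, 0.29, 0.90 and 0.42 CPM in KO labels. Every KO library lay far below every WT library, KO replicate 3 included. The log2 fold change of WT over KO was 6.0 (SE 0.36, n = 5 against 5, edgeR adjusted p = 1.74e-05) without and 6.42 (SE 0.36, edgeR adjusted p = 1.13e-05) with IFNγ. IFNγ itself left it within error in WT (log2 fold change 0.03, 95% interval -0.37 to 0.43).

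**Figure D1:**
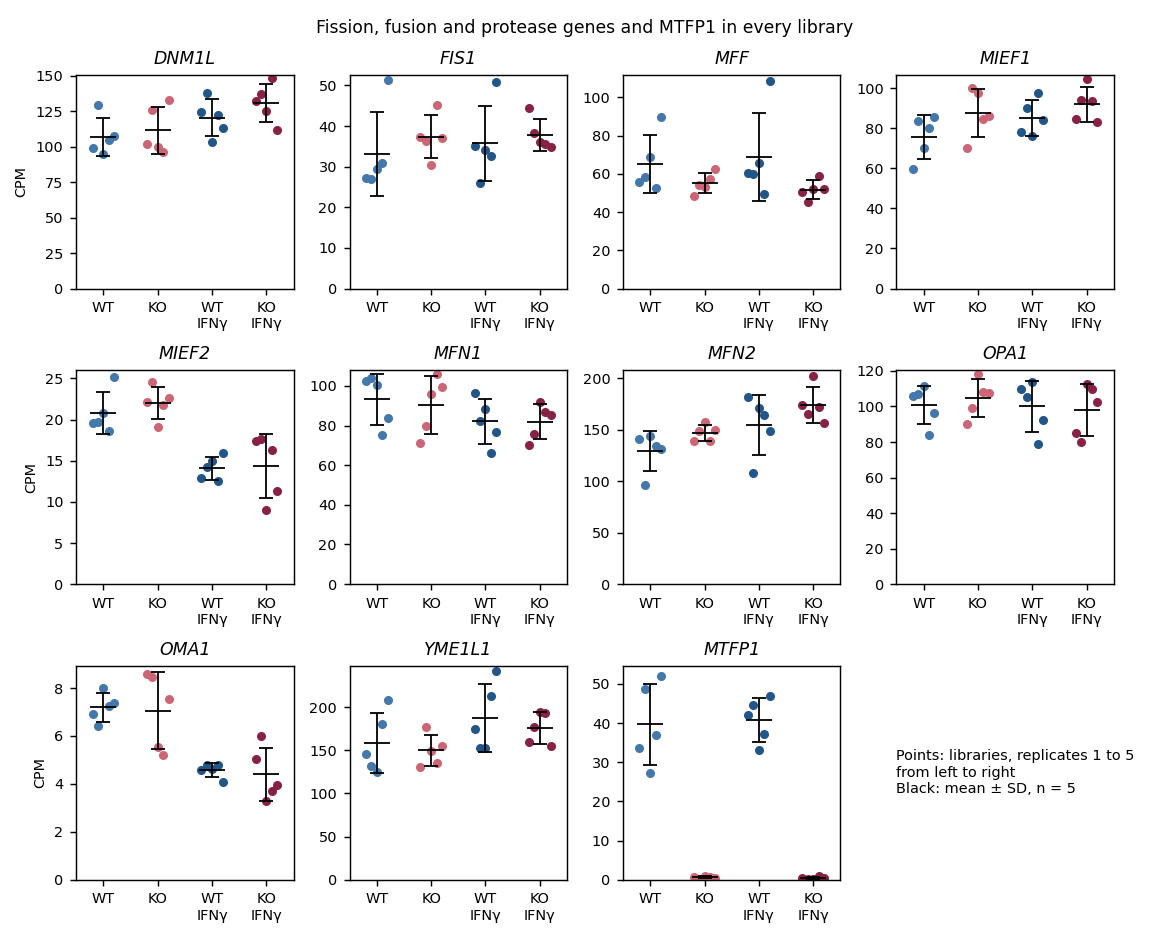
Levels in CPM of the 10 members and MTFP1 in each of the 20 libraries, with points for replicates 1 to 5 of each group and the mean ± SD in black. MTFP1 falls below 1 CPM in all KO labels, while the WT and KO points of each member overlap without and with IFNγ.

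No member of the machinery differed between WT and KO labels. None of the 10 passed an adjusted p of 0.05 in edgeR's quasi-likelihood test, without or with IFNγ, and none had an unadjusted p below 0.05. DESeq2, which called 0.22% and 0.175% of all genes, also called 0 of the 10 in both conditions. Over all genes tested, 0.0308% were called without and 0.0206% with IFNγ, 6 of 19505 and 4 of 19383 genes, all higher in WT, so that few calls stood anywhere in the transcriptome. An unadjusted p below 0.05 was held by 4.79% and 4.35% of all genes. The WT and KO libraries overlapped for all 10 members in both conditions, as they did for all but 0.959% and 0.825% of the genes tested.

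The log2 fold changes of WT over KO ran from -0.21 for MIEF1 to 0.25 for MFF without IFNγ and from -0.18 for MFN2 to 0.40 for MFF with it. Their medians were -0.05 and -0.02, beside medians of -0.00 and -0.02 over all genes tested. In each condition 4 of the 10 lay above 0 and 6 below. The 95% intervals bound what could have been missed. Untreated, the highest upper bound on the level in KO over that in WT was 1.50-fold, for FIS1, and the lowest lower bound was 0.672-fold, for MFF. After IFNγ these bounds were 1.41-fold for MFN2 and 0.558-fold for MFF. A 2-fold rise of any member in the KO labels thus lay outside its interval, whereas differences inside the intervals were not excluded.

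**Figure D2:**
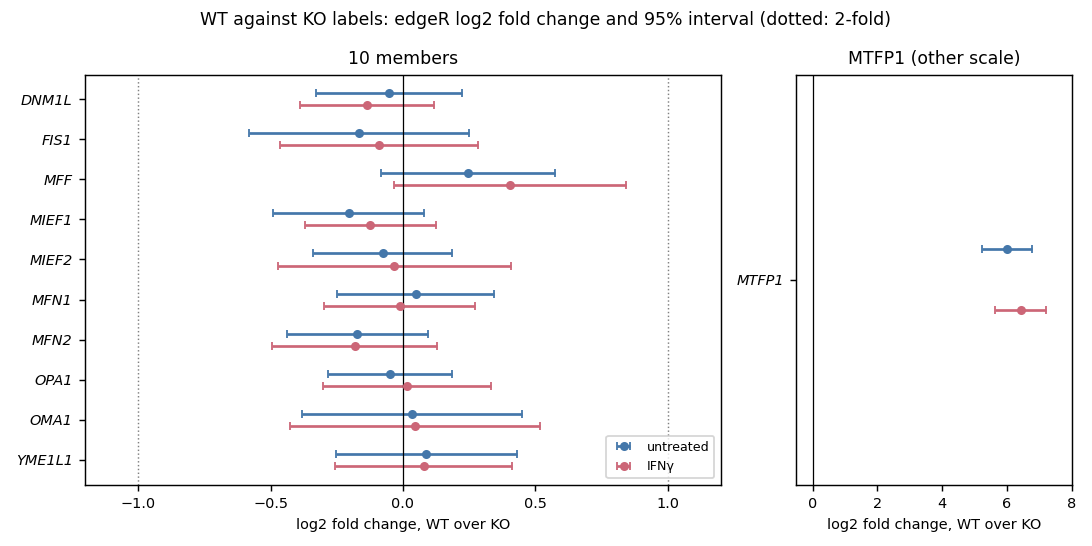
Log2 fold changes of WT over KO labels with 95% intervals from edgeR for the 10 members (left, dotted lines at 2-fold) and for MTFP1 on a wider scale (right), untreated in blue and IFNγ in red. Every member's interval includes 0 and stays between the dotted lines, while MTFP1 lies at 6.0 and 6.42.

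Among the fission genes, DNM1L (chr12:32679301-32745650, plus strand, on GRCh38 like all positions here) encodes the GTPase that cuts the organelle. It was 99.3, 129, 94.6, 105 and 107 CPM in untreated WT clones and 102, 126, 100, 96.4 and 133 CPM in KO labels. The groups share nearly the same range, and the log2 fold change was -0.05 (SE 0.13, 95% interval -0.33 to 0.22).

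FIS1 (chr7:101239472-101245081, minus strand), an outer-membrane anchor of the fission machinery, was 27.2, 26.9, 29.3, 30.8 and 51.3 CPM in untreated WT and 37.4, 36.3, 30.5, 45.3 and 37.2 CPM in KO labels. WT replicates 1 to 3 lay below every KO library and WT replicate 5 above every one. The log2 fold change was -0.17 (95% interval -0.58 to 0.25). Without WT replicate 5 it was -0.38, the widest that leaving out any 1 clone gave for FIS1, and it was not called.

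MFF (chr2:227325251-227357836, plus strand), an outer-membrane receptor that recruits DRP1, gave the largest fold change of the 10. It stood at 55.5, 58.4, 69.0, 52.7 and 89.6 CPM in untreated WT clones and at 48.5, 54.1, 53.1, 57.2 and 62.6 CPM in KO labels, and after IFNγ at 60.6, 60.1, 65.7, 49.5 and 109 CPM in WT and at 50.3, 45.5, 52.2, 58.9 and 51.9 CPM in KO labels. WT replicate 5 was the highest of its group in both conditions, and WT replicate 4 lay inside the KO range in both. The groups overlapped without and with IFNγ. With IFNγ the log2 fold change was 0.40 (SE 0.20, 95% interval -0.03 to 0.84) and a two-sided exact permutation test gave p = 0.0714. Without WT replicate 5 the log2 fold change was 0.17.

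MIEF1 (chr22:39500100-39518132, plus strand) and MIEF2 (chr17:18260662-18266552, plus strand) encode the paralogous adaptors MiD51 and MiD49, which also recruit DRP1. Untreated, MIEF1 was 59.4, 83.5, 69.9, 80.2 and 85.3 CPM in WT and 70.2, 99.9, 97.6, 84.5 and 86.1 CPM in KO labels, with a log2 fold change of -0.21 (95% interval -0.49 to 0.08). MIEF2 was 19.6, 19.7, 20.8, 18.7 and 25.2 CPM in WT and 22.2, 24.6, 19.1, 21.8 and 22.6 CPM in KO labels, with a log2 fold change of -0.08 (95% interval -0.34 to 0.19). Both were a little higher on average in the KO labels, within the spread of the clones.

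Among the fusion genes, MFN2 came nearest to a difference. This mitofusin (chr1:11980444-12013508, plus strand), which also tethers mitochondria to the endoplasmic reticulum, was 141, 96.5, 144, 134 and 131 CPM in untreated WT and 139, 148, 157, 139 and 149 CPM in KO labels. WT replicate 2 was far below the other 9 libraries, and WT replicates 1 and 3 lay inside the KO range. The log2 fold change was -0.17 (95% interval -0.44 to 0.09), and it ran from -0.21 to -0.08 when any 1 clone was left out. The two-sided exact permutation test gave p = 0.0556, and p = 0.111 without KO replicate 3, where the smallest p of 5 against 5 is 0.00794. With IFNγ the exact permutation p was 0.254.

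MFN1 (chr3:179347709-179394936, plus strand), the other mitofusin, ranged from 75.2 to 104 CPM in untreated WT and from 71.0 to 106 CPM in KO labels, with a log2 fold change of 0.05 (95% interval -0.25 to 0.35). OPA1 (chr3:193593208-193697811, plus strand), the inner-membrane fusion GTPase, ranged from 83.9 to 111 CPM and from 90.1 to 119 CPM, with a log2 fold change of -0.05 (95% interval -0.28 to 0.19). In both, the KO range covered most of the WT range. OPA1's exons overlap those of OPA1-AS1 and LOC102724808 on the opposite strand, and the strand setting of the counting was not given in the sources used here.

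OMA1 (chr1:58480719-58546726, minus strand), the stress-activated protease of OPA1, was 6.40 to 8.01 CPM in untreated WT and 5.19 to 8.58 CPM in KO labels, with a log2 fold change of 0.03 (95% interval -0.38 to 0.45). Its exons overlap those of DAB1 on the same strand. YME1L1 (chr10:27110111-27154384, minus strand), the ATP-dependent protease that cleaves OPA1 constitutively, was 125 to 208 CPM in WT and 131 to 177 CPM in KO labels, with a log2 fold change of 0.09 (95% interval -0.25 to 0.43). For both proteases the groups were interleaved.

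Leaving out KO replicate 3 changed no member's call. In exact permutation tests without it, the lowest p over the 10 members was 0.111 untreated (MFN2) and 0.0952 after IFNγ (MFF).

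The wider set of 45 mitochondrial dynamics genes held MTFP1 and 44 others, none of them members. It comprised 11 further fission factors, 3 fusion cofactors, 6 genes of OPA1 processing and inner-membrane scaffolds, 9 modifiers of DRP1 and the mitofusins, 11 genes of the MICOS cristae complex and its partners, and 5 of mitochondrial transport. All were tested, and MTFP1 was the only one called between WT and KO labels, in both conditions. AFG3L2, a subunit of an AAA protease of the inner membrane, was singled out after its values were seen. It was 43.8 to 76.3 CPM in untreated WT and 53.5 to 97.9 CPM in KO labels, with log2 fold changes of WT over KO of -0.57 untreated and -0.59 after IFNγ, unadjusted p of 0.0136 and 0.0146 and edgeR adjusted p of 0.98 and 0.996.

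Beside the members, 12 genes of mitochondrial content such as TOMM20, VDAC1 and CS were read. None was called. The unadjusted edgeR p was below 0.05 for ATP5F1A (0.0293) and HSPD1 (0.0341) untreated and for TOMM20 (0.0199) after IFNγ. Such a p was held by 4.79% and 4.35% of all genes. The summed level of the 12 was 1968 to 2434 CPM in untreated WT and 2468 to 2918 CPM in untreated KO labels. After IFNγ it was 2139 to 2492 CPM and 2324 to 2843 CPM. The untreated ranges did not overlap, those after IFNγ did, and the sum was not tested. The log2 fold changes of WT over KO lay below 0 in 11 of the 12 genes untreated (median -0.20) and in 9 of 12 after IFNγ (median -0.14). The medians over all genes tested were -0.00 and -0.02. The part of mitochondrial content in the levels of the members was not tested.

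Levels can be set against each other between genes only per length, as CPM per kilobase of summed exon. In untreated WT clones the order was FIS1 at 38.0 ± 11.8 (SD, n = 5), YME1L1 at 36.2 ± 8.04, MTFP1 at 35.0 ± 9.20, MFF at 28.2 ± 6.52, MFN2 at 27.0 ± 3.97 and DNM1L at 23.5 ± 2.94 CPM per kilobase. Each range overlaps that of the next gene in this upper group, though every FIS1 library lay above every MFN2 and DNM1L library and every YME1L1 library above every DNM1L library. A gap followed, then OPA1 at 14.8 ± 1.61, MFN1 at 14.3 ± 1.97 and MIEF1 at 12.3 ± 1.76, which again overlap. MIEF2 at 4.92 ± 0.61 and OMA1 at 3.87 ± 0.32 were lowest, and their ranges did not overlap in WT.

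MTFP1 was thus among the most abundant of these mRNAs per length in WT. In untreated KO labels it was last, at 0.54 ± 0.24 CPM per kilobase, below OMA1 at 3.79 ± 0.86. The upper group of FIS1, YME1L1, MFN2, DNM1L and MFF, from 42.9 down to 23.9 CPM per kilobase, stayed apart from OPA1, MIEF1 and MFN1, which lay between 15.4 and 13.9 CPM per kilobase. MIEF2 at 5.22 ± 0.47 and OMA1 overlapped in range in the KO labels.

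**Figure D3:**
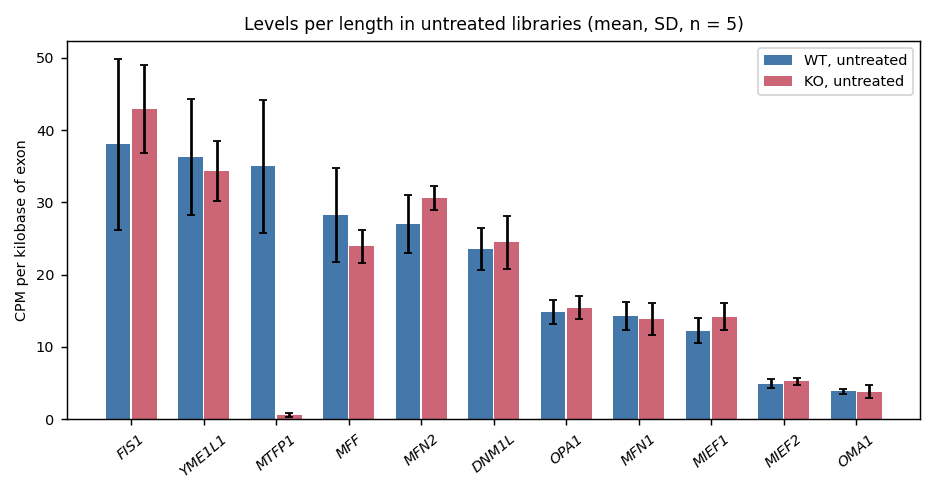
Mean level per length in untreated libraries, in CPM per kilobase of exon, with SD over 5 clones, WT in blue and KO labels in red, ordered by the WT mean. The steps between DNM1L and OPA1 and between MIEF1 and MIEF2 stand in both groups, and MTFP1 goes from 35.0 in WT to 0.54 in KO labels.

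With IFNγ, 2 of the 10 members were called in WT clones. In the KO labels 0 were, where 7.88% of all genes were called. In WT clones MIEF2 and OMA1 fell, and the other 8 members did not pass the test, which did not pair the libraries of a clone. The treatment itself was seen in IRF1, an interferon-induced transcription factor, which rose by 4.96 in WT and by 4.72 in KO labels on the log2 scale. Of all genes tested in WT, 11.3% were called, 6.98% higher and 4.3% lower, against 2 of the 10 members, both lower. Whether 2 of 10 exceeds the share of all genes was not tested. The median log2 fold change of the members was 0.09 in WT, beside -0.03 over all genes tested.

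MIEF2 in WT went from 19.6, 19.7, 20.8, 18.7 and 25.2 CPM to 12.9, 14.2, 14.9, 12.5 and 15.9 CPM with IFNγ, in the order of the clones. Every treated library lay below every untreated one. The log2 fold change was -0.57 (SE 0.13, 95% interval -0.85 to -0.29, edgeR adjusted p = 0.0146), a level 0.673 times that of untreated clones. The call was lost without WT replicate 1 (edgeR adjusted p = 0.0677) or WT replicate 2 (edgeR adjusted p = 0.0608).

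OMA1 in WT went from 6.91, 6.40, 8.01, 7.27 and 7.39 CPM to 4.59, 4.78, 4.61, 4.78 and 4.10 CPM. Again the groups did not overlap, as was the case for 11.1% of all genes, 3.88% in the lower direction. The log2 fold change was -0.67 (SE 0.14, 95% interval -0.98 to -0.36, edgeR adjusted p = 0.0112), a level 0.629 times that of untreated clones. The call was lost without WT replicate 3 (edgeR adjusted p = 0.0525) and when no filter on low counts was used (edgeR adjusted p = 0.0517).

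In the KO labels MIEF2 and OMA1 had log2 fold changes of similar size but were not called. MIEF2 went from 22.2, 24.6, 19.1, 21.8 and 22.6 CPM to 17.4, 17.6, 9.06, 16.3 and 11.3 CPM, without overlap between the groups, and its log2 fold change was -0.63 (SE 0.19, 95% interval -1.04 to -0.21, edgeR adjusted p = 0.0698). OMA1 went from 8.58, 8.46, 5.54, 5.19 and 7.55 CPM to 5.03, 6.0, 3.27, 3.70 and 3.96 CPM, and its log2 fold change was -0.69 (SE 0.24, 95% interval -1.21 to -0.17, edgeR adjusted p = 0.102). The untreated KO clones were more spread for OMA1 than the WT clones, and the treated and untreated ranges overlapped. In the KO labels 7.88% of all genes were called and 9.46% did not overlap, 3.41% in the lower direction.

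With DESeq2, which called 14.4% of all genes there, both members were called in the KO labels as well, with adjusted p of 0.0228 for MIEF2 and 0.0306 for OMA1. The third member with an unadjusted p below 0.05 there was MFN2, with a log2 fold change of 0.24 (95% interval 0.04 to 0.45, edgeR adjusted p = 0.147). Such a p was held by 23.5% of all genes.

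The responses of WT and KO labels were not shown to differ for any member. In the test of the difference over all 20 libraries, 0 of the 10 members and 0 of 21052 genes were called by edgeR, and 0.409% of all genes, but no member, had an unadjusted p below 0.05. DESeq2 called 0 as well. Neither test paired the libraries of a clone, and 0.409% is far below the share that such a threshold gives where nothing differs. The 0 calls therefore do not show that the responses were equal. The WT minus KO difference in log2 response was 0.04 (95% interval -0.44 to 0.51) for MIEF2 and 0.01 (95% interval -0.55 to 0.56) for OMA1. Of the bounds of all 10 members, the one farthest from 0 was 0.68, for MFF.

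**Figure D4:**
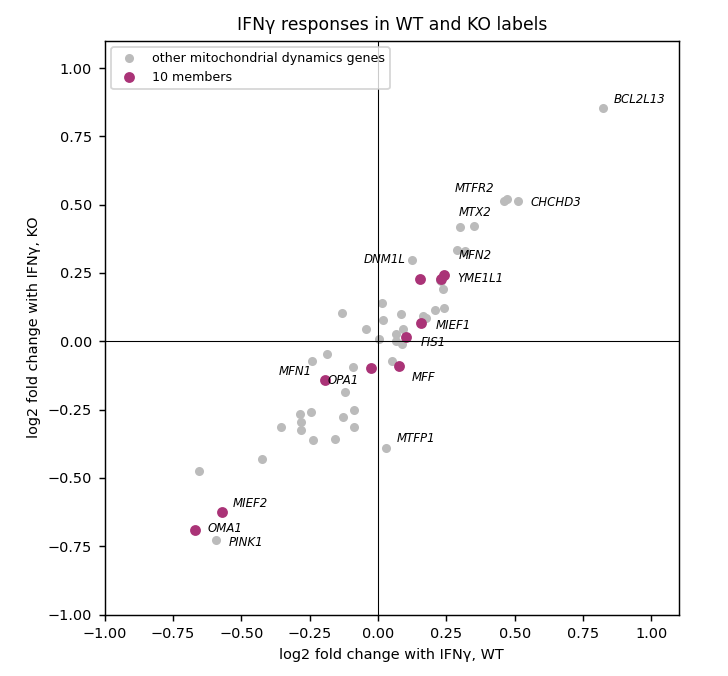
Log2 fold change with IFNγ in WT (horizontal) and in KO labels (vertical), with the 10 members in purple and the 45 genes of the wider set in grey. MIEF2 at -0.57 and -0.63 and OMA1 at -0.67 and -0.69 lie at the lower left, and the other members lie within 0.25 of 0 on both axes.

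Since each clone was measured without and with IFNγ, the response can also be read clone by clone. In WT, MIEF2, OMA1 and MFN1 were lower after IFNγ in 5 of 5 clones, and DNM1L, MFN2 and YME1L1 were higher in 5 of 5. A two-sided exact permutation test over the 32 sign patterns gave p = 0.0625 for each of these 6, the smallest that 5 clones allow. YME1L1 moved most evenly, by 0.24 ± 0.04 (SD, n = 5) on the log2(CPM + 0.1) scale, and MFN2 by 0.25 ± 0.09. In the 3 KO clones whose labelled pairs deviated together, MIEF2, OMA1 and MFN1 were lower in 3 of 3. In the same clones DNM1L and MFN2 were higher in 3 of 3 and YME1L1 in 2 of 3. The share of all genes that moved in one direction in every WT clone, or in these 3 KO clones, was not counted.

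With the clone as a replicate block, 7 of the 10 members were called in WT, where 47% of all genes were. DNM1L (log2 fold change 0.16, edgeR adjusted p = 0.0151), MIEF1 (0.16, edgeR adjusted p = 0.0293), MFN2 (0.24, edgeR adjusted p = 0.001) and YME1L1 (0.23, edgeR adjusted p = 0.000767) rose. MIEF2 (-0.57, edgeR adjusted p = 3.2e-05), MFN1 (-0.20, edgeR adjusted p = 0.00594) and OMA1 (-0.67, edgeR adjusted p = 0.00031) fell. FIS1, MFF and OPA1 were not called, at 0.11, 0.04 and -0.03. Whether 7 of 10 exceeds the share of all genes was not tested, and the 10 were chosen with earlier results known.

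In the KO labels the replicate block called 2 of the 10, MIEF2 (-0.67, edgeR adjusted p = 0.0152) and OMA1 (-0.69, edgeR adjusted p = 0.0168), where 21% of all genes were called. Without KO replicates 4 and 5, whose pairs are doubtful, the block again called these 2, with edgeR adjusted p of 0.0485 and 0.0474, where 13.9% of all genes were called. The difference between the responses remained without a call under the block.

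**Figure D5:**
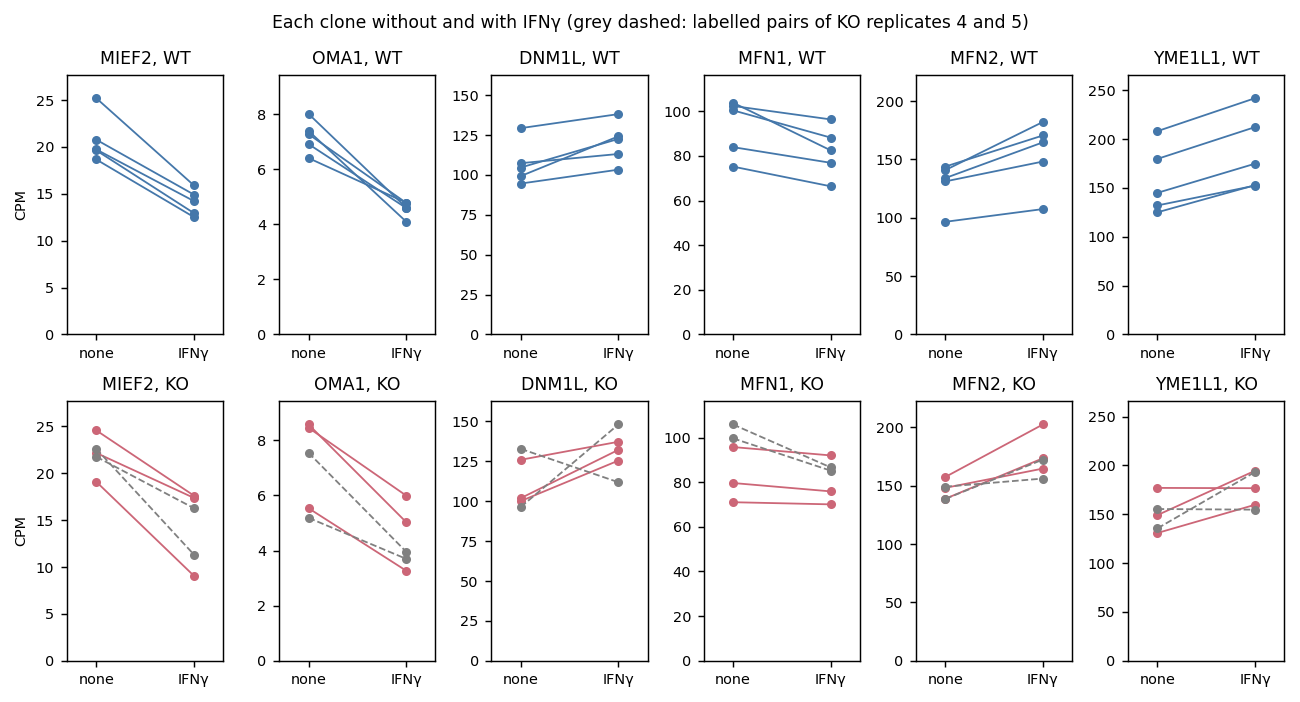
Levels in CPM of MIEF2, OMA1, DNM1L, MFN1, MFN2 and YME1L1 without and with IFNγ, 1 line per clone, WT above and KO labels below, with the labelled pairs of KO replicates 4 and 5 dashed in grey. These are the members that moved in one direction in 5 of 5 WT clones, so the agreement of their WT lines follows from the choice. In the KO labels the lines of MIEF2, OMA1 and MFN1 all run down.

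The balance between paralogs and partners shifted with IFNγ in the same direction in every labelled clone, which is given as a description within each library. Per length, MIEF1 stood at 2.50 times MIEF2 in untreated WT and at 4.17 times after IFNγ, and at 2.74 and 4.76 times in KO labels. OMA1 stood at 0.111 times YME1L1 in untreated clones of both genotypes, and at 0.0596 and 0.0595 times after IFNγ in WT and KO labels. The log2 ratio of MFN1 to MFN2 moved by -0.43 ± 0.08 (SD, n = 5) in WT and by -0.38 ± 0.15 in KO labels. Without KO replicates 4 and 5, an alternative chosen after the data were seen, the shift of the log2 ratio was -0.33 ± 0.10 (SD, n = 3) for MFN1 to MFN2, 0.73 ± 0.40 for MIEF1 to MIEF2 and -0.90 ± 0.35 for OMA1 to YME1L1, each in the same direction in 3 of 3 clones. Untreated, the log2 ratio of MFN1 to MFN2 was -0.91 ± 0.35 in WT and -1.15 ± 0.23 in KO labels, a difference within the SD of the WT clones.

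Of the 45 wider genes, IFNγ raised 4 and lowered none in WT, beside 6.98% of all genes called higher and 4.3% lower. They were BCL2L13, a receptor linked to mitochondrial fragmentation and mitophagy (log2 fold change 0.82, edgeR adjusted p = 0.0169), MTFR2, a fission regulator (0.47, edgeR adjusted p = 0.0361), CHCHD3, a MICOS subunit (0.51, edgeR adjusted p = 0.00328), and MTX2, an import and assembly partner of MICOS (0.46, edgeR adjusted p = 0.0245). In KO labels CHCHD3 (0.51, edgeR adjusted p = 0.0361) and MTX2 (0.51, edgeR adjusted p = 0.0121) were called, while BCL2L13 was at 0.85 (edgeR adjusted p = 0.0646) and MTFR2 at 0.52 (edgeR adjusted p = 0.0582). PINK1, the kinase that marks damaged mitochondria, lay near MIEF2 and OMA1 at -0.59 in WT and -0.73 in KO labels and was called in neither (edgeR adjusted p = 0.263 and 0.13). The median log2 fold change of the wider set was 0.03 in both genotypes. With the replicate block, 25 of the 45 were called in WT, beside 47% of all genes. Among the 12 content genes, TOMM40, the pore of the outer-membrane import complex, rose in WT (0.42, edgeR adjusted p = 0.0174). Its treated level was 1.34 times the untreated one in WT and 1.34 times in KO labels, where none of the 12 was called.

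The members varied between clones of a group to different extents. The mean within-group SD of log2 CPM was largest for FIS1 (0.27), MFF (0.25) and YME1L1 (0.23). After removing group means, the genes most like them over the 20 libraries, 2 libraries per clone and thus not 20 independent points, were MMADHC and SRRM3 for FIS1 (both Pearson's r = 0.82), SOWAHC and TMEM87B for MFF (both 0.87), and UPF2 and RAB18 for YME1L1 (0.93 and 0.92), out of 15116 genes. Among the members themselves, OPA1 and MFN1 deviated most alike (0.87), followed by MFF and FIS1 (0.70), and OMA1 and OPA1 deviated most in opposite directions (-0.60). These values are descriptive and share library depth and clone.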

How the data were processed

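Counts were made by the authors from stranded poly(A) RNA-seq reads, aligned to GRCh38 with STAR 2.7.9a on a RefSeq index, kept where uniquely mapped and counted with featureCounts 2.4.0, and deposited as raw counts per gene without normalization. Unique mapping leaves out reads shared with near-identical copies. The 20 libraries held 46652288 to 72952859 counts, so that 3 counts correspond to 0.0409 to 0.0608 CPM. Groups and clones were taken from the labels. In R 4.3.3, edgeR 4.0.16 (TMM, its filter on low counts, robust quasi-likelihood test) was fitted on 5 against 5 libraries over all genes, with Benjamini-Hochberg adjustment and a threshold of 0.05. The test of the difference between responses used all 20 libraries. Intervals of 95% came from the log2 fold change and its F statistic. The script was tested on simulated data. DESeq2 1.42.0 was an alternative, as were the cut-offs of an adjusted p below 0.01 and over 2-fold, other scaling and no filter. Further alternatives were all 20 libraries together, a replicate block and leaving out each clone. The block was the clone for IFNγ responses and the replicate number for WT against KO. Exact permutation tests used log2(CPM + 0.1). The members, the lists and the named genes (all members, MTFP1, and called genes of the lists) were chosen with earlier results of these data known. The labels name the clone of each library, which pairs untreated with treated libraries (correlation 0.70 to 0.89 except 0.00 and 0.07 for KO replicates 4 and 5), while WT and KO numbers do not pair (-0.26 to 0.25). Replicates are separate clones.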

Additional observations from a re-analysis of the deposited data

Results flagged for a closer look

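Each group of 5 was examined for a library far from the others, for the 10 members, MTFP1 and ZBTB48 in 4 groups, and 6 of 48 groups held one where chance gives about 2.4. FIS1 in untreated WT replicate 5 was the highest at 51.3 CPM, with the nearest clone at 30.8 CPM. MFF in IFNγ-treated WT replicate 5 was the highest at 109 CPM, with the nearest at 65.7 CPM. MFN2 in untreated WT replicate 2 was the lowest at 96.5 CPM, with the nearest at 131 CPM. OMA1 in IFNγ-treated WT replicate 5 was the lowest at 4.10 CPM, with the nearest at 4.59 CPM. ZBTB48 in KO replicate 3 was the highest of its group, at 11.3 CPM untreated, with the nearest at 4.04 CPM, and at 16.0 CPM with IFNγ, with the nearest at 5.17 CPM. No cause was tested.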

How the results depend on the processing

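Of 1203 recomputed values, 1128 stayed on their side of the threshold or within the tolerance, some uncalled ones near 0 with a change of sign, 54 moved, 6 lost a call, 15 gained one and 0 reversed a called direction. Members called between WT and KO labels stayed at 0 in both conditions under every alternative run, and MTFP1 stayed called, with a log2 fold change of 2.30 and 2.93 under DESeq2's shrinkage. All genes called between untreated WT and KO labels, 6 in the report, were 3 at the study's cut-offs, 43 with DESeq2 (43 shrunk) and 3 to 4 when 1 clone was left out. They were 2 with the replicate block, which between WT and KO joins unrelated clones by their number. After IFNγ, 4 in the report, they were 34 with DESeq2 (34 shrunk) and 8 with all 20 libraries together. For IFNγ in WT, members called, 2 in the report, were 0 at the study's cut-offs, 1 with no filter, 7 with the replicate block and 1 to 2 without 1 clone. All genes called, 2202 in the report, were 585, 9183 with the block and 1099 to 1719 without 1 clone, and wider genes, 4 in the report, were 0, 25 with the block and 1 to 3. For IFNγ in KO labels, members called, 0 in the report, were 2 with DESeq2 (2 shrunk), 2 with all 20 libraries, 2 with the block and 2 with the block without KO replicates 4 and 5. All genes, 1528 in the report, were 379 at the study's cut-offs, 2785 with DESeq2 (2786 shrunk), 4076 with the block, 2732 with the block without KO replicates 4 and 5 and 513 to 2081 without 1 clone. Wider genes, 2 in the report, were 0 at the cut-offs, 1 with no filter, 4 with DESeq2 (4 shrunk), 4 with all 20 libraries, 10 with the block, 5 without KO replicates 4 and 5 and 0 to 3 without 1 clone. The cut-offs are stricter by construction, and other causes were not tested. The difference between responses gave 0 calls throughout. Between WT and KO labels, where clones are not paired, differences inside a member's 95% interval were not excluded with 5 clones a group.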
